A study of Mus musculus with 16 samples.

Results

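Interleukin-1 (IL-1) is represented in the gene table by 6 genes that were followed here because their products bind one another: the ligands Il1a and Il1b, the receptor antagonist Il1rn, the signalling receptor Il1r1, the decoy receptor Il1r2 and the accessory protein Il1rap. They were taken by gene symbol alone, as 6 of 48440 genes listed, and all 6 were among the 17604 genes with enough counts to be tested. RNA was sequenced from whole ear skin of B6 mice in 4 groups of 4 mice. Untreated normal-diet (ND) and untreated high-fat-diet (HFD) mice gave the groups ND_cont and HFD_cont. ND_PMA and HFD_PMA were mice on the same diets whose ears received phorbol 12-myristate 13-acetate (PMA), an activator of protein kinase C that provokes skin inflammation, at 200 ng per ear and were collected after 24 h. High-fat feeding lasted 8 weeks. The sources used here give neither the age and sex of the mice nor whether untreated ears received solvent. In whole skin, fewer cells of a type and less RNA per cell cannot be told apart.

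IL-1 alpha and IL-1 beta both bind the receptor encoded by Il1r1, which then recruits the protein encoded by Il1rap and signals through MyD88 and NF-kB. The antagonist encoded by Il1rn occupies the same receptor without recruiting the accessory protein, and the product of Il1r2 binds ligand but has no signalling domain. In skin, keratinocytes store IL-1 alpha and release it on damage, whereas IL-1 beta is made chiefly by activated myeloid cells and needs proteolytic cleavage.

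The ligand and antagonist genes lie on mouse chromosome 2, and Il1r1 and Il1r2 on chromosome 1 (GRCm38, GENCODE M21). Il1a (chr2:129299610-129309972, minus strand, 7 exons) and Il1b (chr2:129364570-129371139, minus strand, 6 exons) are close to each other, and Il1rn (chr2:24336853-24351494, plus strand, 6 exons) is farther off on the same chromosome. Il1r2 (chr1:40074079-40125231, plus strand, 11 exons) lies near Il1r1 (chr1:40225080-40317257, plus strand, 15 exons). Il1rap spans chr16:26581704-26730117 on the plus strand with 14 exons. Exons of 3 of the genes overlap an annotated gene on the opposite strand: Il1a shares 222 bases with Gm14023, Il1b shares 25 with Il1bos and Il1rap shares 552 with Gm20319. The library protocol does not mark strand, so reads in those bases cannot be assigned. Gm14023 had 8 to 44 counts in a library, Il1bos 0 to 60 and Gm20319 0 to 2.

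The promoters of the ligands and of the antagonist are shown because PMA is the classical agent of the AP-1 element, also called the TPA response element after another name for PMA. RefSeq (GRCm38.p6) gave 9 start sites for the 6 genes, and windows from 250 bases before to 50 bases after each start were searched on both strands for AP-1 (TGANTCA), NF-kB (GGGA, any base, TT, any base, CC) and the TATA box (TATAAA). The 250 bases before the start are printed 5′ to 3′ on the gene's strand, with matches in capitals. They are chr2:129309973-129310222 (minus) for Il1a, chr2:129371140-129371389 (minus) for Il1b and chr2:24336610-24336859 (plus) for the first of 3 start sites of Il1rn.
Il1a: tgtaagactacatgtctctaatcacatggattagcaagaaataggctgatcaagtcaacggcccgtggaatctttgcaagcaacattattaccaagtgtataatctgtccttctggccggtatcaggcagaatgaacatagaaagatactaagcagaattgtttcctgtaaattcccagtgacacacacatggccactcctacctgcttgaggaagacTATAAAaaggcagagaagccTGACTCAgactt
Il1b: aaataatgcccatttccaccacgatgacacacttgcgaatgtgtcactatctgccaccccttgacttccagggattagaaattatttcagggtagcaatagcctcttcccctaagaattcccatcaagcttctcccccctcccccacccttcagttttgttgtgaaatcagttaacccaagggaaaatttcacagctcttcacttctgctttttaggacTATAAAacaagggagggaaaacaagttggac
Il1rn: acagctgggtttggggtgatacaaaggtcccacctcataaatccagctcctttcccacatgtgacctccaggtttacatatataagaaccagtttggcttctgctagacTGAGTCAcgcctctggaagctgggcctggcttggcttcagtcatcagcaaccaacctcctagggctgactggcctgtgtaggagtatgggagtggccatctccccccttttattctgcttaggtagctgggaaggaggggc
The Il1a window held TGACTCA 12 bases before the start and TATAAA 32 bases before it. Il1b had TATAAA at 31 bases before the start and no AP-1 match. Il1rn had TGAGTCA at 141 bases before its first start, and the third start had a TATA box match on the other strand, 14 bases after it. The 4 windows of Il1r1, Il1r2 and Il1rap held none of these motifs, and the NF-kB letters were in none of the 9 windows. Of all 32851 promoter windows of the same length, 7.81% held the AP-1 letters, 1.2% the NF-kB letters and 13.6% the TATA box. A match is a description of letters, and no factor binding was measured.

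Library totals ran from 7739487 to 15571389 counts, and levels are given as CPM, counts scaled to the library total, where 1 CPM stood for about 8 to 16 counts. Pearson correlations of log2 CPM within a group lay between 0.926 and 0.959, lowest between HFD_PMA replicates 1 and 4. By chi-square of the counts per degree of freedom, ND_PMA replicate 2 stood apart most from its group, at 42.18 to 49.15. Library names fall into 2 series: all 4 ND_cont libraries and HFD_cont replicate 1 carry the prefix RHS and the other 11 RHP. The labels do not say what the prefix means, and differences between ND_cont and the other groups cannot be told apart from it except through HFD_cont, where 1 library has the one prefix and 3 the other. A fit with the series as a term therefore rests on that 1 library. The tissue label matched the data: summed CPM of 8 keratinocyte markers was between 20220 and 32140 in every library. Markers of growing hair differed widely between mice, with sums of 20.98 to 138 CPM in ND libraries and 66.9 to 2831 CPM in HFD libraries.

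Among the 6 genes, the antagonist rose with PMA in HFD mice and the decoy receptor fell with PMA on both diets, while no member was called for diet in untreated skin. A gene was called where the p of edgeR's quasi-likelihood test, adjusted over the 17604 genes by Benjamini-Hochberg, was below 0.05. For diet in untreated skin 0 of 6 members were called, against 3.93% of all genes tested; 3 members had an unadjusted p under 0.05 (Il1a and Il1rn higher, Il1rap lower in HFD), and DESeq2 called 0. For diet in PMA-treated skin 1 member was called, Il1rn, against 2.2% of all genes. For PMA in ND mice 1 member was called, Il1r2, against 12.9% of all genes, and for PMA in HFD mice 2 were called, Il1rn and Il1r2, against 11.9%. For the diet by PMA interaction 0 of 6 were called against 0.00568% of all genes, that is 1 gene; 2 members had an unadjusted p under 0.05 and DESeq2 called 0. The median log2 fold change of the members was 0.11, 0.34, 0.06 and 0.26 in the first 4 comparisons, beside -0.02, -0.03, 0.00 and -0.02 for all genes. The diet comparisons share the same mice with the PMA comparisons, so the 4 sets of values are not independent.

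**Figure D1:**
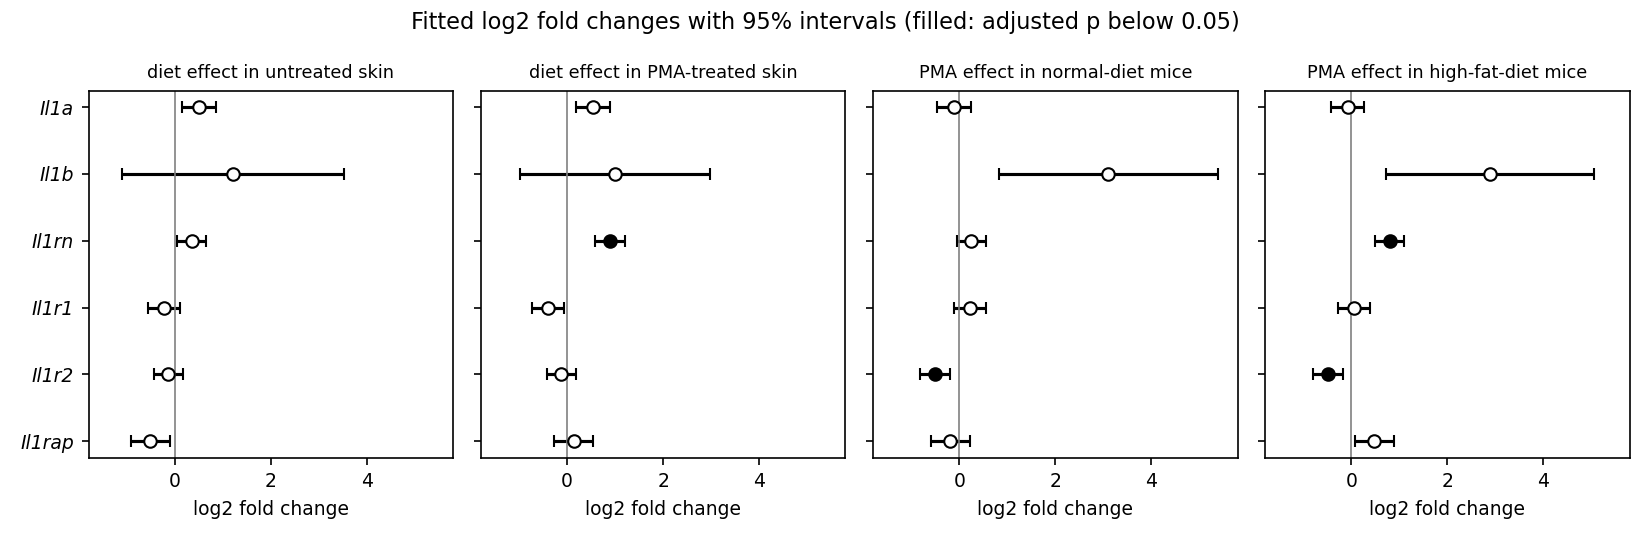
Log2 fold change of each of the 6 genes in the 4 comparisons, with 95% confidence intervals from edgeR (filled symbols: adjusted p below 0.05). Il1rn in HFD mice with PMA and in PMA-treated skin with diet, and Il1r2 with PMA on both diets, are the 4 called values, and the intervals of Il1b are the widest.

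Compared per gene length, as TPM (a length-corrected share of all transcripts), the decoy receptor was the most abundant of the 6 in untreated ND skin and IL-1 beta the least. There Il1r2 stood at 320 ± 51.6 TPM (SD, n = 4, as for all levels and ratios that follow, while log2 fold changes carry SE), Il1rn at 91.2 ± 6.35 TPM, Il1a at 48.2 ± 5.51 TPM, Il1r1 at 24.5 ± 2.29 TPM, Il1rap at 22.3 ± 6.19 TPM and Il1b at 3.30 ± 4.08 TPM. The libraries of neighbours in this order did not overlap, except those of Il1r1 and Il1rap. Untreated HFD skin kept the order, but there Il1r1 (18.7 ± 2.42 TPM), Il1rap (13.8 ± 1.93 TPM) and Il1b (6.91 ± 9.58 TPM) each overlapped the next. The length counts all annotated exons of a gene, 5535 bases for Il1rn and 1908 for Il1r2, and the order depends on it. In mean CPM, without that correction, Il1rn was below Il1r2 in ND_cont (158 and 191) but above it in HFD_cont (201 and 174), ND_PMA and HFD_PMA.

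After PMA Il1r2, Il1rn and Il1a kept the first 3 places in both diets, and the order of the others changed. In PMA-treated ND skin Il1b reached 25.1 ± 22.9 TPM, beside Il1r1 at 26.2 ± 5.53 TPM and Il1rap at 17.8 ± 5.02 TPM, and from Il1a (40.8 ± 8.48 TPM) downwards neighbours overlapped. Il1r2 stood at 206 ± 10.2 TPM and Il1rn at 99.2 ± 5.89 TPM, still apart. In PMA-treated HFD skin the decoy receptor (178 ± 40.7 TPM) and the antagonist (172 ± 46.4 TPM) overlapped. Il1a was next at 55.4 ± 7.40 TPM, then Il1b at 47.0 ± 26.7 TPM, Il1r1 at 18.6 ± 2.38 TPM and Il1rap at 18.3 ± 2.15 TPM, with overlaps from Il1a onwards.

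**Figure D2:**
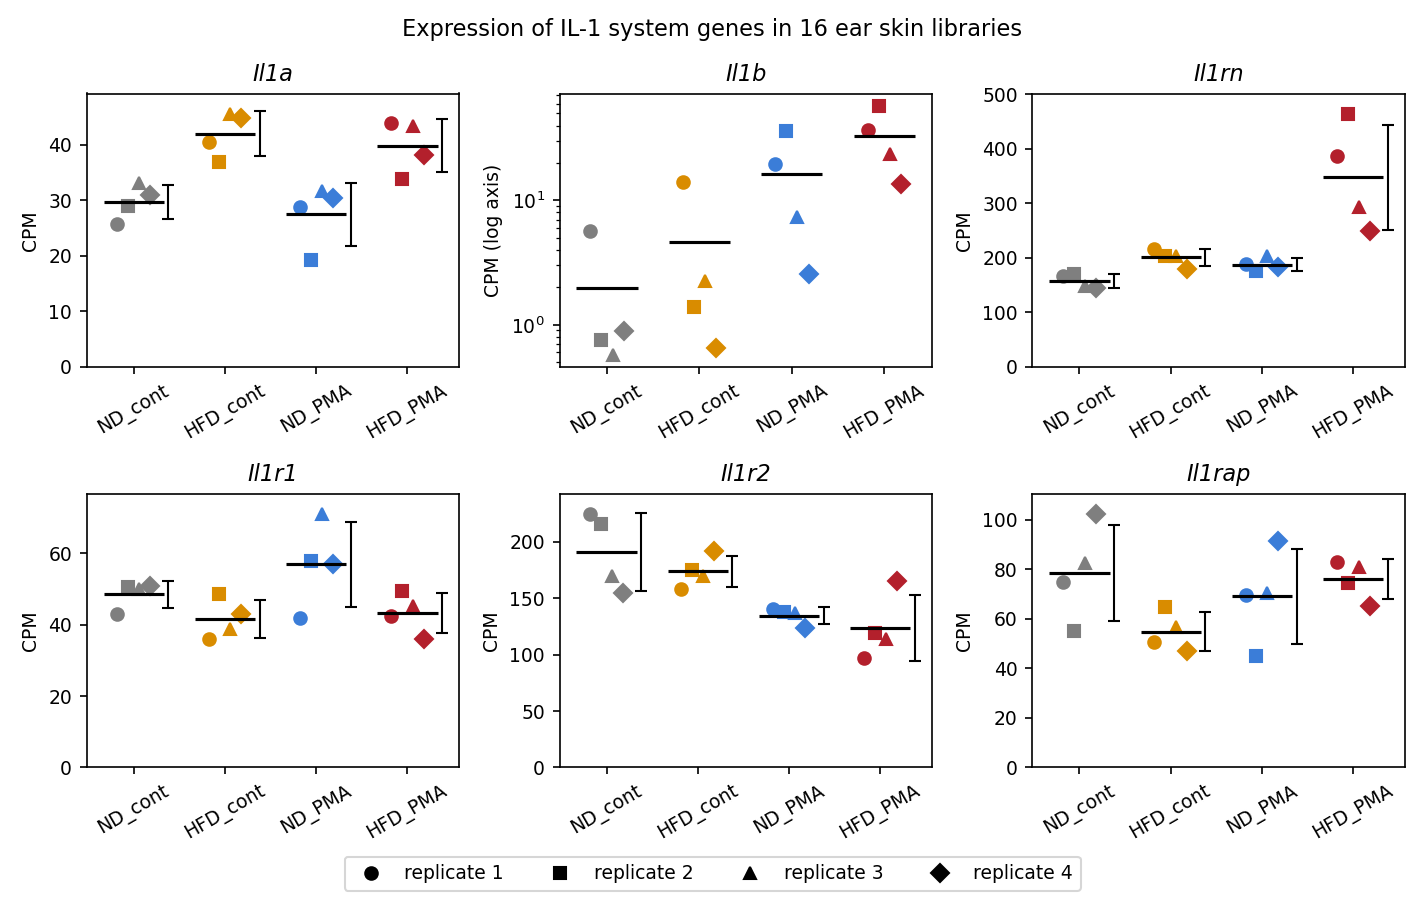
CPM of the 6 genes in each of the 16 libraries by group (symbols: replicates; lines: group means; brackets: SD), with a log axis and no SD for Il1b. Il1rn lies above 248 CPM in all HFD_PMA libraries and below 218 CPM in all others, whereas Il1b spreads from 0.577 to 57.5 CPM.

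Il1a, the ligand that keratinocytes store, had higher values in HFD than in ND skin and near-equal values with and without PMA. In ND_cont its levels were 25.8, 28.95, 33.1 and 30.9 CPM, and in HFD_cont 40.4, 36.9, 45.55 and 44.85 CPM. All 4 untreated HFD libraries were above all 4 untreated ND libraries. With PMA the ND mice had 28.8, 19.2, 31.6 and 30.4 CPM and the HFD mice 43.9, 33.9, 43.4 and 38.1 CPM, again without overlap. Groups did not overlap in CPM for 12.6% of all genes in the untreated diet comparison and for 8.63% after PMA. Neither diet difference passed the test: the log2 fold change was 0.50 ± 0.17 (SE) in untreated skin (edgeR adjusted p = 0.109) and 0.54 ± 0.17 after PMA (edgeR adjusted p = 0.101). DESeq2 called the second (0.57, adjusted p = 0.0231). With the library series as a term the untreated value was 0.44 (edgeR adjusted p = 0.584). For PMA the 95% intervals were -0.46 to 0.24 in ND and -0.42 to 0.27 in HFD mice, on the log2 scale. Summed CPM of 8 keratinocyte markers also stood higher in HFD libraries. Untreated sums were 25880 to 29180 against 20220 to 24090 CPM, and sums after PMA 29820 to 32140 against 24100 to 27630 CPM. Of the 8 markers 4 were called in untreated skin and 1 after PMA, all higher in HFD. Of all genes 3.93% and 2.2% were called in either direction. Markers not called in untreated skin were Trp63 (log2 0.06), Dsp (-0.03), Cdh1 (-0.08) and Krt15 (-0.64). The part of keratinocytes in the Il1a values was not tested.

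Il1b, the ligand made by activated myeloid cells, was near the detection limit in most untreated ears and varied more between mice than any other member. ND_cont libraries had 5.68, 0.757, 0.577 and 0.898 CPM (46, 8, 6 and 8 counts), and HFD_cont libraries 14.1, 1.39, 2.25 and 0.652 CPM (114, 18, 31 and 6 counts). In both untreated groups replicate 1 was several times above the other 3, and HFD_cont replicate 1 is the only HFD library with the RHS prefix, which all ND_cont libraries have. ND_PMA libraries had 19.6, 36.1, 7.30 and 2.57 CPM and HFD_PMA libraries 36.8, 57.5, 23.4 and 13.5 CPM. PMA-treated and untreated ND mice overlapped because of ND_cont replicate 1 and ND_PMA replicate 4, and in HFD mice the highest untreated library was just above the lowest treated one. The coefficient of variation was 125%, 138%, 91.4% and 58.0% in ND_cont, HFD_cont, ND_PMA and HFD_PMA.

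Fitted group means of Il1b were 8.61-fold apart for PMA in ND mice (log2 3.11 ± 1.07 SE, edgeR adjusted p = 0.0748) and 7.39-fold in HFD mice (2.89 ± 1.01, edgeR adjusted p = 0.0827), and neither passed the test. Without ND_cont replicate 1 the ND value was 4.46, and without HFD_cont replicate 1 the HFD value was 4.47, and edgeR called both, as it did the ND value without ND_PMA replicate 4; DESeq2 called both on all libraries (3.02, adjusted p = 0.0211, and 2.82, adjusted p = 0.0354). A fit with the library series as a term is no separate check, since the term is set by HFD_cont replicate 1: it gave 6.35 in ND and 4.47 in HFD mice, the latter the value without that library. For diet the intervals spanned 0, from -1.1 to 3.53 in untreated and from -0.98 to 2.97 in PMA-treated skin, and the untreated value turned to -0.35 without HFD_cont replicate 1. The antisense gene Il1bos, which shares the 25 exon bases, had 0 counts in ND_cont replicate 1 and 23 in HFD_cont replicate 1.

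Many neutrophil and monocyte markers rose with PMA, as did mean Il1b, which edgeR did not call on all libraries. Of 9 neutrophil markers 6 could be tested, of which 4 rose with PMA in ND mice and 6 in HFD mice. Of all genes 8.96% and 7.34% were called higher. The summed CPM of all 9 was 9.93 to 22.6 in ND_cont, 21.6 to 60.4 in HFD_cont, 85.5 to 257 in ND_PMA and 291 to 1215 in HFD_PMA. S100a8, a calcium-binding alarmin of neutrophils that stressed keratinocytes make as well, went from 2.80 ± 3.603 to 48.25 ± 43.4 CPM in ND and from 8.75 ± 9.17 to 363 ± 278 CPM in HFD mice. The defining neutrophil gene Ly6g had no count outside HFD_PMA, where its mean was 0.158 CPM, Retnlg had none in HFD_cont and Camp none in HFD_PMA. Of 10 monocyte and macrophage markers 6 rose in ND and 7 in HFD mice, beside the same shares of all genes. Their sums were 719 to 836 and 539 to 718 CPM untreated and 983 to 1455 and 660 to 1209 CPM with PMA. The median sum was 1252 CPM in ND_PMA and 1044 CPM in HFD_PMA, where mean Il1b was 16.4 and 32.8 CPM. HFD_cont replicate 1, the untreated library with the most Il1b, also had the highest neutrophil sum of its group (60.4 CPM), whereas ND_cont replicate 1 was second lowest in its group (11.5 CPM). The part of these cells in the Il1b values was not tested.

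**Figure D3:**
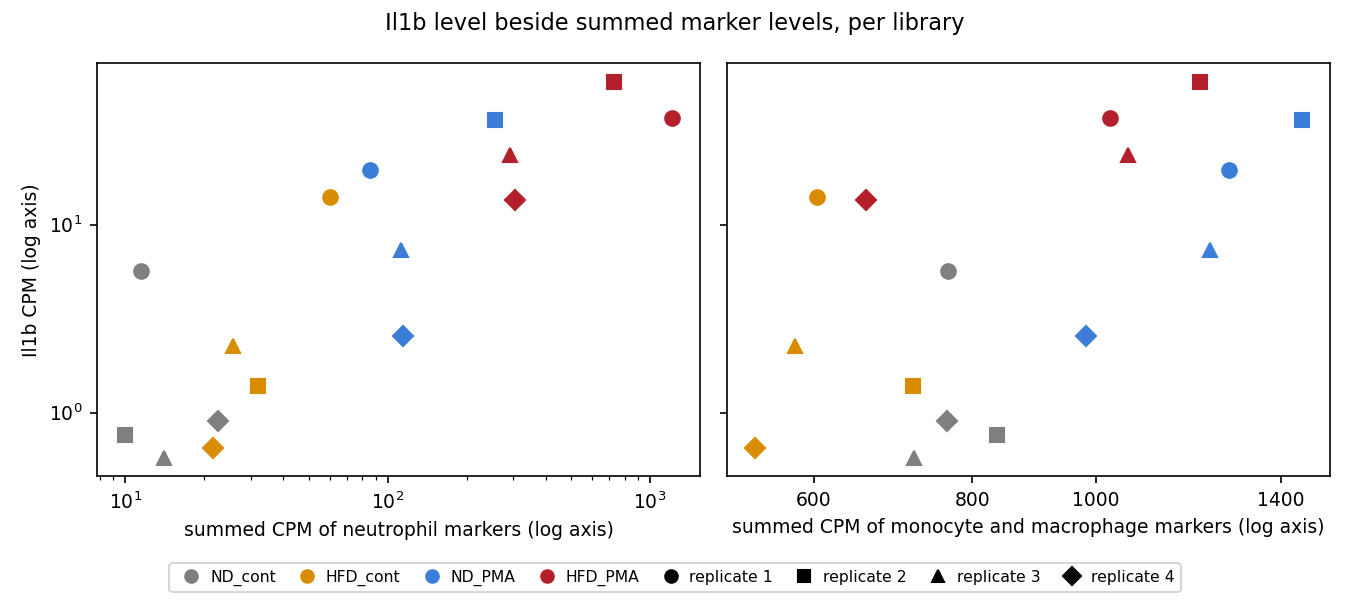
Il1b (CPM, log axis) against the summed CPM of neutrophil markers and of monocyte and macrophage markers (log axes) in the 16 libraries, coloured by group and with 1 symbol per replicate. Untreated libraries lie at 60.4 CPM of neutrophil markers or less and PMA-treated ones at 85.5 CPM or more.

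Il1rn, which encodes the receptor antagonist, was the only member that edgeR called for diet, and it was called in PMA-treated skin. HFD_PMA libraries had 386, 464, 293 and 248 CPM and ND_PMA libraries 188.5, 176, 203 and 183 CPM. Every HFD_PMA library was above every ND_PMA library and above every untreated library. Groups did not overlap in CPM for 8.63% of all genes in the comparison of HFD_PMA with ND_PMA. The mean was 348 ± 96.5 CPM against 188 ± 11.1 CPM, a 1.85-fold difference (log2 0.89 ± 0.15 SE, edgeR adjusted p = 0.00378) with the 27th smallest p of 17604 genes. The call held without each of the 8 libraries in turn, at log2 values between 0.74 and 1.05 and edgeR adjusted p-values between 0.000867 and 0.0144. Higher values in HFD were called for 0.943% of all genes in this comparison. Of the 387 genes called with TMM scaling, 166 were higher and 221 lower in HFD, and of the 386 called with RLE scaling 203 were higher and 183 lower.

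In HFD mice Il1rn rose with PMA, from 217, 203, 203 and 179.9 CPM in HFD_cont (mean 201 ± 15.3) to the HFD_PMA values above. The rise was 1.73-fold (log2 0.79 ± 0.15 SE, edgeR adjusted p = 0.00119), beside 7.34% of all genes called higher, and it was called without each of the 8 libraries in turn (log2 0.60 to 0.91). ND_cont libraries had 167.5, 171, 148 and 145 CPM, all below the 4 ND_PMA libraries, yet the log2 difference of 0.25 ± 0.15 did not pass the test (edgeR adjusted p = 0.307). Groups failed to overlap for 16.8% of all genes with PMA in ND mice and for 18.8% in HFD mice. For diet in untreated skin the 4 HFD libraries were above the 4 ND libraries, with a log2 difference of 0.35 ± 0.15 that missed the threshold (edgeR adjusted p = 0.221). These values were 0.40 for PMA in ND mice and 0.46 for untreated diet with the library series as a term (edgeR adjusted p = 0.573 and 0.477). The difference between the PMA effects on the 2 diets was 0.54 ± 0.21 (edgeR adjusted p = 0.983), so a larger response in HFD mice was not established.

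The neutrophil sums given above and the keratinocyte sums were, like Il1rn, highest in HFD_PMA. Of the 6 tested neutrophil markers, however, edgeR called 0 for diet in PMA-treated skin. Mean levels in ND_PMA and HFD_PMA were 48.25 and 363 CPM for S100a8 and 21.8 and 176 CPM for S100a9. The other 4 were closer, at 35.05 and 47.66 CPM for Cxcr2 and 33.37 and 43.21 CPM for Csf3r. Mmp8 had 2.347 and 3.636 CPM, and Retnlg 1.571 and 1.156 CPM. Whether neutrophil numbers differed between these groups was not tested. With PMA in ND mice the median neutrophil sum went from 12.8 to 114 CPM. The log2 difference of Il1rn there was 0.25 ± 0.15 (SE), higher with PMA but not called. The median monocyte and macrophage sum was lower in HFD_PMA than in ND_PMA, at 1044 against 1252 CPM. Within HFD_PMA, Il1rn and Il1b had the same order of libraries, highest in replicate 2, then 1, 3 and 4, while the neutrophil sum was highest in replicate 1 (1215 CPM) and stood at 727 CPM in replicate 2. Growing hair markers summed to 2831 CPM in HFD_PMA replicate 1 and to 66.9 to 177 CPM in the other 3, among them replicate 2 with the highest Il1rn. The part of these cell types in the Il1rn values was not tested.

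Il1r2, the decoy receptor, fell with PMA on both diets. In ND_cont it had 224, 216, 169.5 and 154 CPM and in ND_PMA 140.3, 138, 136 and 123.5 CPM. All 4 treated ND libraries were below all 4 untreated ones, and groups did not overlap in CPM for 16.8% of all genes in this comparison. The mean fell from 191 ± 34.4 to 134.5 ± 7.46 CPM, 1.42-fold lower (log2 -0.51 ± 0.15 SE, edgeR adjusted p = 0.0265), where lower values were called for 3.99% of all genes. HFD_cont libraries had 158.5, 175, 169.8 and 192 CPM and HFD_PMA libraries 96.7, 119, 114 and 165 CPM. Here HFD_PMA replicate 4 lay within the untreated range and the other 3 below it. The mean fell from 174 ± 14.0 to 124 ± 29.2 CPM, 1.41-fold lower (log2 -0.49 ± 0.15 SE, edgeR adjusted p = 0.0341), beside 4.6% of all genes called lower.

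Both Il1r2 calls depended on single libraries. In ND mice the log2 value stayed between -0.59 and -0.42 when 1 library was left out, and the call was lost without ND_cont replicate 1 or 2 or ND_PMA replicate 3 or 4 (edgeR adjusted p = 0.0949, 0.0632, 0.0549 and 0.0737) and with the library series as a term (-0.68, adjusted p = 0.279); in HFD mice it stayed between -0.67 and -0.39 and was lost without HFD_cont replicate 2, 3 or 4 or HFD_PMA replicate 1, 2 or 3 (edgeR adjusted p = 0.0622, 0.0602, 0.0921, 0.114, 0.0823 and 0.0874). Diet did not move Il1r2 past the threshold in untreated skin (95% interval -0.44 to 0.17) or in PMA-treated skin (-0.43 to 0.19). The interaction interval was -0.42 to 0.45. Of 8 keratinocyte markers 3 rose and 1 fell with PMA in ND mice, and 1 rose and 2 fell in HFD mice. Of all genes 8.96% were called higher and 3.99% lower in ND mice, and 7.34% and 4.6% in HFD mice. Krt15, a keratin of basal and hair follicle bulge keratinocytes, fell on both diets, by 1.70 in ND and 1.54 in HFD mice on the log2 scale, while Krt14 of basal keratinocytes rose by log2 values of 1.01 and 0.71; Krt15 was named after its values were seen. The part of these keratinocytes in the Il1r2 values was not tested.

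Il1r1, the signalling receptor, was not called in any comparison by edgeR or DESeq2. Its levels were 42.95, 50.4, 49.98 and 50.7 CPM in ND_cont, 36.1, 48.5, 38.9 and 42.9 CPM in HFD_cont, 41.9, 57.8, 70.9 and 57.0 CPM in ND_PMA and 42.5, 49.4, 45.3 and 35.9 CPM in HFD_PMA. The groups overlapped in every comparison. The widest difference in means was that of diet after PMA, 56.9 ± 11.9 against 43.3 ± 5.71 CPM (log2 -0.39 ± 0.16 SE, edgeR adjusted p = 0.217). For PMA the 95% intervals were -0.10 to 0.56 in ND and -0.27 to 0.39 in HFD mice. The PMA value in ND mice turned from 0.23 to -0.037 with the library series as a term. Summed fibroblast markers were lower in HFD libraries, 5807 to 6876 against 8982 to 11460 CPM untreated and 3971 to 6232 against 6625 to 9328 CPM after PMA, and their part in the Il1r1 values was not tested.

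Il1rap, which encodes the accessory chain that IL-1 shares with IL-33 and the IL-36 cytokines, had opposite signs for PMA on the 2 diets, and neither was called. ND_cont had 74.7, 55.2, 82.4 and 102 CPM and ND_PMA 69.6, 44.8, 70.6 and 91.6 CPM. HFD_cont had 50.5, 64.8, 56.8 and 46.9 CPM and HFD_PMA 83.1, 74.4, 81.1 and 65.2 CPM. Here the highest untreated library was just below the lowest treated one, and groups did not overlap for 18.8% of all genes. The log2 values were -0.19 ± 0.19 in ND (edgeR adjusted p = 0.612) and 0.47 ± 0.19 in HFD mice (edgeR adjusted p = 0.133). Fitted on the 2 HFD groups alone, the second was 0.46 with an edgeR adjusted p of 0.0326. The difference between them was 0.66 ± 0.27 (edgeR adjusted p = 0.9995). For diet the values were -0.52 ± 0.19 in untreated skin (edgeR adjusted p = 0.157) and 0.14 ± 0.19 after PMA. The untreated value was -0.64 with the library series as a term (edgeR adjusted p = 0.499).

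**Figure D4:**
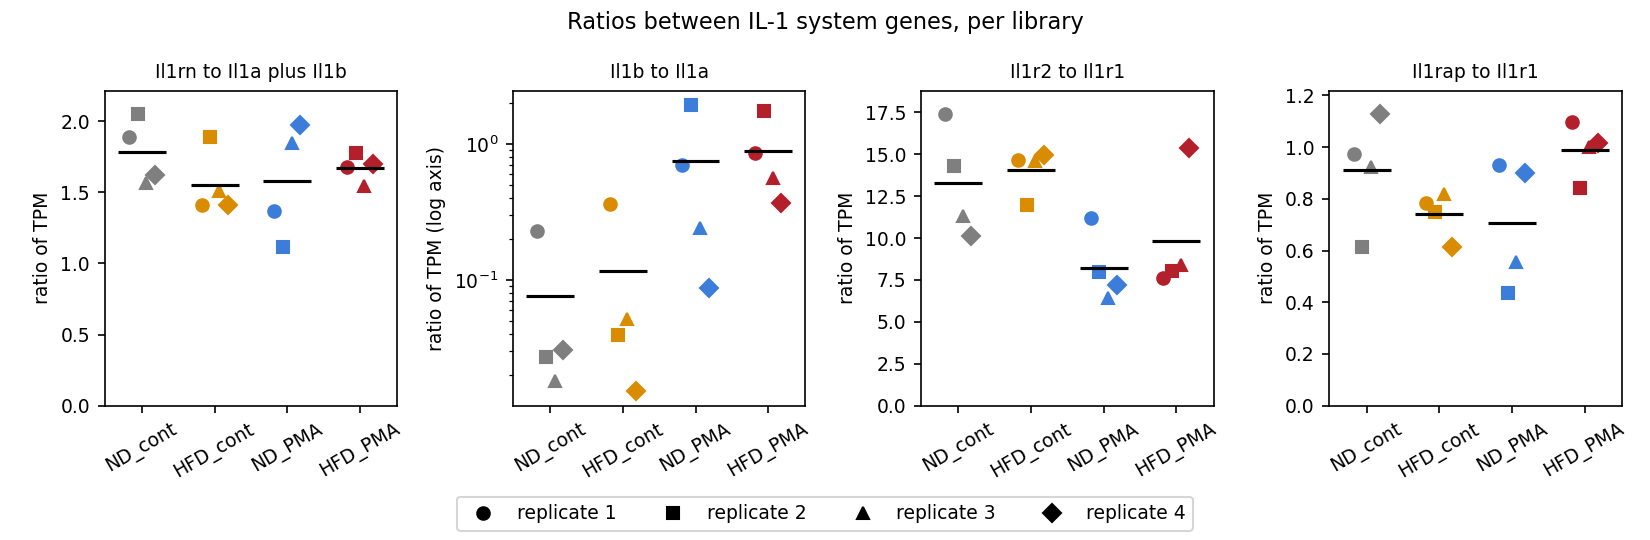
Ratios of members on the TPM scale in each of the 16 libraries, by group (symbols: replicates; lines: group means), with a log axis for Il1b to Il1a. The antagonist to ligand ratio lies between 1.11 and 2.05 in every library, and Il1b to Il1a runs from 0.0150 to 1.95.

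On the TPM scale the antagonist stayed above the summed ligands in every library. The ratio of Il1rn to Il1a plus Il1b was 1.78 ± 0.227 in ND_cont, 1.55 ± 0.228 in HFD_cont, 1.58 ± 0.403 in ND_PMA and 1.67 ± 0.0954 in HFD_PMA, and all 4 groups overlapped. The lowest value, 1.11, was in ND_PMA replicate 2, the library with most Il1b of its group. Il1b relative to Il1a was 0.0758 ± 0.102 in ND_cont, 0.117 ± 0.164 in HFD_cont, 0.745 ± 0.844 in ND_PMA and 0.888 ± 0.615 in HFD_PMA. The decoy to signalling receptor ratio, Il1r2 to Il1r1, was 13.3 ± 3.26 and 14.0 ± 1.37 in untreated ND and HFD skin and 8.19 ± 2.08 and 9.85 ± 3.69 after PMA. In HFD mice 3 of 4 treated libraries (7.59 to 8.40) were below the untreated range of 12 to 14.9, and replicate 4 was above it at 15.4. Il1rap to Il1r1 was 0.910 ± 0.216, 0.741 ± 0.0903, 0.705 ± 0.247 and 0.990 ± 0.106 in the same order. These ratios were not tested, and RNA ratios say nothing of protein amounts.

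Across the 16 libraries the pair of members that went together most was Il1b and Il1rn, with a Pearson r of log2 CPM of 0.72, and 0.44 after group means were removed. Il1b and Il1r2 had an r of -0.66, which was -0.04 within groups. Il1a and Il1b had an r of -0.10 over all libraries and -0.57 within groups. Il1a and Il1rap had 0.05 and 0.56. These correlations are descriptions over libraries that share diet, treatment and name series.

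Among 11564 tested genes with a mean of at least 5 CPM, those most like each member were ranked by the same r over 16 libraries. For Il1a these were Ppp4r2 (0.88), Il18 (0.87) and Mal2 (0.86), and within groups 0.72, 0.72 and 0.79. Il1b was followed by Rab8a (0.93), Creld2 (0.92) and Dynlt1-ps1 (0.92, a pseudogene whose reads may belong to its parent gene), with 0.79, 0.82 and 0.81 within groups. Il1rn was followed by Fetub (0.90), Cdca3 (0.89) and Kif4 (0.89), with 0.61, 0.54 and 0.79 within groups. Il1r2 was followed by Rasl10a (0.93), Pcolce2 (0.93) and Krt15 (0.91), which kept 0.81, 0.82 and 0.81 within groups. Il1r1 was followed by Mtmr4 (0.81), Sec31a (0.81) and Tgfbi (0.78), with 0.69, 0.71 and 0.61 within groups, and Il1rap by Calu (0.87), Cnot1 (0.84) and B3galnt2 (0.83). Il1rap was the member whose neighbours kept most of their likeness within groups, with 0.88, 0.80 and 0.86.

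Downstream of the receptor, 16 genes of the signalling chain were all tested. With PMA 1 of 16 rose in ND mice, beside 8.96% of all genes called higher, and 2 of 16 in HFD mice, beside 7.34%. For 16 genes both counts are near these shares and are no result about the chain as a set. By edgeR 0 of 16 were called lower on either diet; at an unadjusted p under 0.05 there were 2 higher and 3 lower in ND mice and 4 higher and 1 lower in HFD mice. Myd88, the adaptor of the receptor, rose from 69.5 ± 2.76 to 127.5 ± 35.3 CPM in ND mice (log2 0.88 ± 0.16, edgeR adjusted p = 0.000716) and from 71.7 ± 9.45 to 113 ± 12.9 CPM in HFD mice (0.66 ± 0.16, edgeR adjusted p = 0.00854). Irak4, the first kinase of the chain, rose in HFD mice from 24.0 ± 3.85 to 35.0 ± 2.53 CPM (0.54 ± 0.16, edgeR adjusted p = 0.0307). The count was up to 3 in ND mice without ND_cont replicate 1, 2 or 4 or ND_PMA replicate 2, and 1 or 0 in HFD mice without HFD_cont replicate 1 or 4 or HFD_PMA replicate 1, 2 or 3. DESeq2 called 5 in ND and 2 in HFD mice; with the library series as a term 0 were called in ND mice, so that Myd88 lost its call there, and 1 in HFD mice, and with only the groups compared 4 were called in HFD mice. Diet called 0 of 16 in untreated and 0 of 16 in PMA-treated skin, with 3 and 3 at an unadjusted p under 0.05 and 0 and 1 by DESeq2.

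Of 13 genes for processing and release of IL-1, 10 were tested and 1 rose with PMA in ND and 3 in HFD mice, beside the same 8.96% and 7.34% of all genes. The share in ND mice is near that of all genes. Capn2, a calpain subunit of the protease family that cleaves the IL-1 alpha precursor, rose from 131 ± 6.49 to 236 ± 57.2 CPM in ND (log2 0.84 ± 0.17, edgeR adjusted p = 0.00188) and from 117 ± 23.2 to 257 ± 54.6 CPM in HFD mice (1.14 ± 0.17, edgeR adjusted p = 0.000181). Gsdmd, the pore protein through which IL-1 beta leaves the cell, rose in HFD mice from 13.7 ± 1.62 to 22.3 ± 3.24 CPM (0.70 ± 0.18, edgeR adjusted p = 0.0153). The inflammasome sensor Nlrp3 was the third, at 0.439 ± 0.629 CPM untreated and 4.32 ± 3.30 CPM with PMA, and is named although its level is below that required for named genes. Casp1, the protease that matures IL-1 beta, was at 13.8 ± 2.16, 17.2 ± 3.37, 12.1 ± 2.40 and 15.6 ± 6.58 CPM in ND_cont, HFD_cont, ND_PMA and HFD_PMA and was not called. Capn2 lost its call in ND mice with the library series as a term, where 0 of 10 were called. The count in HFD mice went down to 1 when 1 library was left out (lower than 3 by over 1.5 times without HFD_cont replicate 2 or 4 or HFD_PMA replicate 2). Diet called 0 of 10 in both comparisons, with 3 and 1 at an unadjusted p under 0.05 and 1 and 0 by DESeq2.

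**Figure D5:**
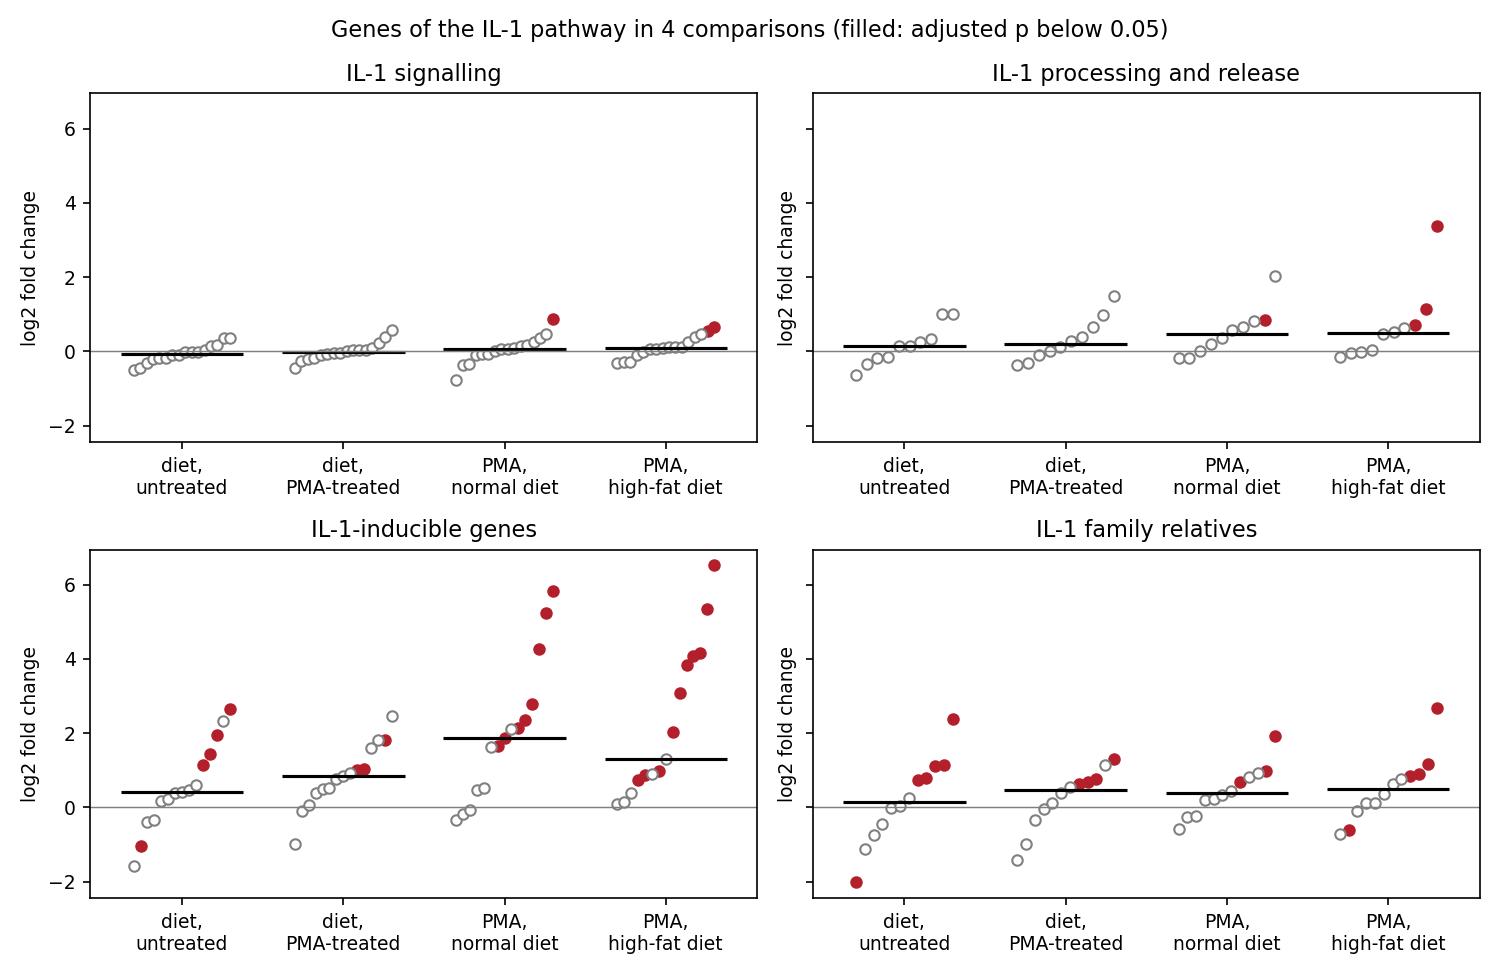
Log2 fold changes of the tested genes of 4 lists around IL-1 in the 4 comparisons (points: genes in order of value; filled: adjusted p below 0.05; lines: medians). IL-1-inducible genes have medians of 1.87 and 1.32 for PMA in ND and HFD mice, and signalling genes 0.07 and 0.10; the highest points, such as Saa3 and Cxcl5, start from groups at or near 0 and depend on the prior count.

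A list of 18 genes known to be induced by IL-1, many of which other stimuli induce as well, had 15 tested members. With PMA 8 of 15 rose in ND and 10 of 15 in HFD mice, beside 8.96% and 7.34% of all genes called higher. By edgeR none were called lower, and median log2 values over the 15 were 1.87 and 1.32. With the library series as a term 4 were called in ND and 8 in HFD mice. Lcn2, an iron-sequestering antimicrobial protein, rose from 0.913 ± 0.391 to 18.1 ± 7.82 CPM in ND (log2 4.26 ± 0.39, edgeR adjusted p = 4.12e-07) and from 3.61 ± 1.26 to 64.4 ± 18.9 CPM in HFD mice (4.15 ± 0.35, edgeR adjusted p = 5.64e-07). Ccl2, a monocyte chemoattractant, rose in ND mice from 2.48 ± 0.742 to 12.6 ± 4.86 CPM. The chemokine gene Cxcl5 and the serum amyloid gene Saa3 were at 0.504 ± 0.262 and 0.154 ± 0.309 CPM in HFD_cont and at 22.1 ± 16.7 and 12.2 ± 9.41 CPM in HFD_PMA.

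For diet, 5 of these 15 genes were called in untreated skin and 3 of 15 after PMA, beside 3.93% and 2.2% of all genes. In untreated skin 4 were higher in HFD and 1 was lower, Mmp3, a matrix metalloproteinase (68.6 ± 9.56 against 33.8 ± 9.998 CPM). The higher ones were Lcn2, Ccl20, a chemokine of epithelium (1.46 ± 0.456 against 9.21 ± 2.13 CPM), Zc3h12a, an RNase that limits inflammatory transcripts (10.2 ± 2.77 against 27.9 ± 7.80 CPM), and Nfkbiz, an NF-kB cofactor (44.55 ± 14.6 against 97.96 ± 20.9 CPM). With the library series as a term 0 of these 15 were called in untreated skin. After PMA 3 were higher in HFD: Lcn2 (log2 1.83 ± 0.31, edgeR adjusted p = 0.00398), Nfkbia (1.03 ± 0.20, edgeR adjusted p = 0.0108) and Nfkbiz (1.01 ± 0.21, edgeR adjusted p = 0.0158). That count was 6 without ND_PMA replicate 2 and 6 by DESeq2.

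Relatives of the IL-1 ligands and receptors were also called for diet. Of 12 relatives, all tested, 5 were higher and 1 lower in HFD untreated skin and 4 were higher after PMA. Of all genes 3.93% and 2.2% were called in these comparisons, in either direction. With the library series as a term 4 relatives were called in untreated skin. Il1f6, which encodes IL-36 alpha, stood at 7.26 ± 2.82 CPM in ND_cont and 37.4 ± 11.3 CPM in HFD_cont (log2 2.37 ± 0.25, edgeR adjusted p = 2.1e-05), and at 27.5 ± 3.08 and 67.3 ± 10.1 CPM after PMA (1.29 ± 0.23, edgeR adjusted p = 0.0068). Il18 was at 30.1 ± 1.96 and 66.8 ± 6.35 CPM untreated (1.15 ± 0.16, edgeR adjusted p = 0.000317) and at 25.7 ± 5.68 and 43.9 ± 5.04 CPM after PMA (0.78 ± 0.16, edgeR adjusted p = 0.0148). With PMA 3 relatives rose in ND mice, beside 8.96% of all genes, and 2 were called there with the library series as a term. In HFD mice 4 rose and 1 fell, beside 7.34% and 4.6% of all genes. Il1f9, which encodes IL-36 gamma, was among those that rose on both diets (log2 0.99 ± 0.13 in ND and 0.90 ± 0.13 in HFD mice). For the interaction 0 genes of the 4 lists were called, with 1, 0, 4 and 3 at an unadjusted p under 0.05 in signalling, processing, inducible and relative genes and 0 by DESeq2.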

How the data were processed

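RNA-seq libraries of whole ear skin from 16 mice (4 groups of 4) were analysed. Per the labels' protocols, cDNA was made by SMARTSeq v2 and libraries with Nextera XT, which copy polyadenylated RNA and amplify it without strand marks or molecular identifiers, so reads are not independent molecules. The authors deposited whole-number counts per gene with a gene length, and these counts were used as deposited. STAR 2.3 and featureCounts 1.5 are named per the submitters' processing notes, as is the build GRCm38; the sources used here give neither their settings nor the annotation. Deposited lengths of all 6 members equalled GENCODE M21 exon bases. Every column matched 1 sample, 0 entries named no gene, and counts of any 2 libraries in a group differed beyond sampling noise (lowest chi-square per degree of freedom 9.68).

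Genes passing filterByExpr (minimum count 10, minimum total 15) entered 1 quasi-likelihood fit (edgeR 4.0.16 with TMM factors and the robust option, limma 3.58.1, R 4.3.3) of 4 group means. It gave 5 contrasts: diet untreated, diet with PMA, PMA on each diet, and the interaction. The threshold was 0.05 for p-values adjusted over 17604 genes (Benjamini-Hochberg). SE is the absolute log2 fold change over the square root of F, and intervals are at 95%. CPM used TMM-scaled totals, log2 CPM a prior count of 2, and TPM the deposited length. The procedure was tested on simulated data for diet after PMA and for PMA in HFD mice. Each of 2 simulations per comparison changed 200 of 17604 genes, drawn at random over all levels. The procedure recovered 9.7% and 8.96% of 1.5-fold changes, and 44% and 47% of 2-fold changes. In the data 387 and 2101 genes were called, so recovery of a given member may differ from these shares. False calls were 6.29% and 5.88% of all calls. A gene that was not called may therefore still differ by such amounts.

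The members, gene lists and tests were chosen with earlier results of these data known. There were 4 pathway lists and 11 marker lists. Named were all members, up to 3 called genes a list and comparison that changed most in log2 terms at a mean of at least 5 CPM, and the 3 genes most like each member. Genes named to complete a small count, or as markers beside a member, were chosen after their values were seen. Marker lists without a value in the text served as checks only. Alternatives were RLE factors, DESeq2 1.42.0, no low-count filter, a filter of at least 5 CPM in 4 libraries, a block for the replicate number, only the groups compared, the library series as a term and each library left out. ERCC spike-ins and protein sequences were not used here.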

Additional observations from a re-analysis of the deposited data

Results flagged for a closer look

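In 7 of 40 sets of 4 libraries (10 levels and ratios in 4 groups), 1 library lay far from the other 3 relative to the whole range of its group. For normally distributed values chance alone gives about 1 in 20 such sets. Il1b, with few counts in most untreated libraries, need not be so distributed. The ratios share genes with the levels, so the 7 are not independent. Il1b stood at 5.68 CPM in ND_cont replicate 1, against 0.577 to 0.898 CPM in the other 3, and at 14.1 CPM in HFD_cont replicate 1, against 0.652 to 2.25 CPM. The ratio of Il1b to Il1a followed, at 0.228 against 0.0181 to 0.0301 in ND_cont and at 0.361 against 0.0150 to 0.0512 in HFD_cont, both in replicate 1. Il1r1 was lowest in the same ND_cont library, at 42.95 CPM against 49.98 to 50.7 CPM. The ratio of Il1r2 to Il1r1 was 12 in HFD_cont replicate 2, against 14.6 to 14.9, and 15.4 in HFD_PMA replicate 4, against 7.59 to 8.40.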

How the results depend on the processing

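Of 204 alternative log2 fold changes of members other than those leaving out a library, 189 kept direction and side of the threshold, as did all 24 group levels under RLE scaling. Over all tested genes, libraries with the same replicate number were little alike (correlations of deviations -0.067 to 0.202, 22 of 24 at or under 0.1). Between HFD_cont and HFD_PMA all values were positive (0.202, 0.0138, 0.116 and 0.0791). Il1b had the same order of replicates in ND_PMA and HFD_PMA, and the labels do not say whether the numbers pair mice. With the replicate block Il1b was called for PMA, at 3.16 ± 0.65 SE (edgeR adjusted p = 0.0035) in ND and 3.39 ± 0.60 SE (edgeR adjusted p = 0.00155) in HFD mice. Il1r2 was then -0.50 (edgeR adjusted p = 0.0501) in HFD mice, and the interaction was 0.23 for Il1b with 2 genes called.

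With the library series as a term, genes called were 179 in place of 691 for untreated diet, 453 in place of 2279 for PMA in ND mice and 2 for the interaction. Il1b for PMA was then 6.35 in ND and 4.47 in HFD mice, both called, Il1r2 in ND mice was -0.68 and lost its call, and Il1r1 turned to -0.037 in ND, -0.0035 in HFD mice and 0.034 for the interaction. The term is set by HFD_cont replicate 1 against the other 3 HFD_cont libraries, so its PMA values in HFD mice nearly repeat those without that library. With only the groups compared, 175 genes in place of 387 were called for diet after PMA, Il1b in ND mice was 3.07 and Il1rap in HFD mice 0.46, both called. DESeq2 called 1149 genes for untreated diet, 850 for diet after PMA and 22 in place of 1 for the interaction; it also called Il1a for diet after PMA (0.57) and Il1b for PMA (3.02 and 2.82). Both low-count filters gave 2 genes for the interaction.

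Leaving out 1 library gave 336 to 636 genes for untreated diet (336 without ND_cont replicate 4, over 1.5 times fewer also without ND_cont replicate 3 or any HFD_cont library), 116 to 307 for diet after PMA (116 without HFD_PMA replicate 2, and few without ND_PMA replicate 3 or 4), 1205 to 2139 for PMA in HFD mice (fewer without HFD_PMA replicate 2 or HFD_cont replicate 3) and 1 to 4 for the interaction (more without ND_cont replicate 2 or 4, ND_PMA replicate 1 or HFD_PMA replicate 2). Il1b ran from -0.35 to 2.57 for untreated diet, from 2.33 to 4.46 and 2.44 to 4.47 for PMA in ND and HFD mice, and from -1.57 to 1.39 for the interaction. Il1r2 ran from -0.59 to -0.42 and -0.67 to -0.39 for PMA, from -0.26 to 0.029 for diet after PMA and from -0.13 to 0.15 for the interaction. Il1a ran from -0.073 to 0.13 for the interaction and Il1r1 from -0.031 to 0.13 for PMA in HFD mice. The cause of these shifts was not tested.

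Without division by length (CPM in place of TPM), Il1rn to Il1a plus Il1b was 5.01, 4.37, 4.46 and 4.76, Il1r2 to Il1r1 3.98, 4.21, 2.46 and 2.95, and Il1rap to Il1r1 1.62, 1.32, 1.26 and 1.77 in ND_cont, HFD_cont, ND_PMA and HFD_PMA. At 6 to 46 counts a library, untreated ND levels of Il1b rest on few reads.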
